A study of Homo sapiens with 8 samples.

Results

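The genes described here encode the enzymes that turn glucose into pyruvate, lactate and acetyl-CoA and the enzymes of the tricarboxylic acid (TCA) cycle, together with their transporters and control enzymes. They were taken by symbol from the pathway, with earlier results of these data known, and are 39 of the 52719 genes in the table. Of these, 17 belong to glucose uptake and glycolysis, 4 to lactate and 3 to the bifunctional enzymes that set fructose 2,6-bisphosphate. Pyruvate dehydrogenase and its kinases have 6 and the TCA cycle has 9. The data are 8 RNA-seq libraries of SH-SY5Y, an established human neuroblastoma line grown in DMEM/F12 with foetal calf serum. Undifferentiated cells gave 4 libraries (replicates 17 to 20), for which no dose or day is given. Differentiated cells, given 1 µM 9-cis retinoic acid for 7 days, gave the other 4 (replicates 21 to 24). The labels carry no other allele or agent and do not say whether the replicates were separate cultures, so a p-value here reflects how these libraries spread, which may be technical. How long undifferentiated cells had been in culture is not given, and treatment and time in culture cannot be told apart.

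Glycolysis splits glucose into pyruvate in the cytosol. Pyruvate is then either reduced to lactate by lactate dehydrogenase and exported, or carried into the mitochondrion, where the pyruvate dehydrogenase complex converts it to the acetyl-CoA that citrate synthase feeds to the TCA cycle. Most steps are catalysed by isozymes from separate genes, and proliferating neuroblastoma cells and neurons are known to use different ones.

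Sequence distinguishes the forms of one of these enzymes. PKM, the pyruvate kinase gene at chr15:72199029-72231822 on the minus strand (GENCODE 29, GRCh38), makes its M1 and M2 forms from a pair of mutually exclusive exons of 167 bases. The M1 exon lies at chr15:72203022-72203188 and the M2 exon at chr15:72202454-72202620. They are shown 5′ to 3′ because the PKM results below rest on which of them a transcript carries, and capitals mark the 62 positions at which the pair differ.
M1 exon: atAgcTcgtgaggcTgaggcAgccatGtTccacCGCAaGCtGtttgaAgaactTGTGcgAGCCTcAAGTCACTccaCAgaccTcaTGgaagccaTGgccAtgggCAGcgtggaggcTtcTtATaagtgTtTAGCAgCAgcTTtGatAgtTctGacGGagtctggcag
M2 exon: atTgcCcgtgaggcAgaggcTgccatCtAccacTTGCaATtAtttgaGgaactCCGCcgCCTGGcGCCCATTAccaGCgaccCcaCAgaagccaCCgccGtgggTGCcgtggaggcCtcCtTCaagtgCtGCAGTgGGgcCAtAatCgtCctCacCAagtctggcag
The other 105 positions (62.9%) are identical, so the reads that tell the forms apart are those over this exon and its junctions.

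Levels are given as TPM (transcript abundance), which are corrected for transcript length and sum to 1000000 in each library. Fold changes are log2 differences of TPM + 1, differentiated minus undifferentiated, tested with limma over the 17077 genes whose mean reached 1 TPM and called at an adjusted p under 0.05. Of the 39 genes 38 passed that minimum. SLC2A3, the neuronal glucose transporter, stayed under it at 0.127 to 0.232 TPM in undifferentiated and 0.264 to 0.351 TPM in differentiated libraries. SLC16A3 passed only through the differentiated group.

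After differentiation 8 of the 38 genes were higher, 13 were lower and 17 did not pass the test. Over all tested genes 51.3% were called, 33.9% higher and 17.4% lower, so the number called among the pathway genes is near the background. Their median log2 fold change was -0.06, and that of all tested genes was 0.10. By step, 3 of 16 tested genes of uptake and glycolysis were higher and 6 lower, 1 and 3 of the 4 lactate genes, 1 and 0 of the 3 bifunctional enzymes, 2 and 2 of the 6 pyruvate dehydrogenase genes, and 1 and 2 of the 9 TCA cycle genes. Single libraries moved some of these small counts: the higher count was 1 for pyruvate dehydrogenase without replicate 17, 18, 19, 20, 22 or 23, 2 for the TCA cycle without replicate 18 or 22, and 2 for the bifunctional enzymes without replicate 22. Without SLC16A3 the counts were 7 higher and 13 lower, with a median of -0.08. For 21 of the 38 genes (7 higher and 14 lower) every library of one group lay beyond every library of the other, beside 49.6% of all tested genes. A called change of 0.5 or more was found for 9 genes, 3 higher (PFKL, IDH1 and SLC16A3, the last of which passed the minimum only through the differentiated group) and 6 lower (HK2, ALDOC, LDHA, LDHB, PDK1 and IDH2), beside 29.9% of all tested genes.

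The scale of the library moved these counts. Median-of-ratios scaling shifted the median of all genes from 0.10 to -0.02 and gave 5 pathway genes higher and 19 lower, beside 27.1% and 26.1% of all genes. Quantile normalization gave 6 higher and 17 lower, beside 24.4% and 29.9%. Under median-of-ratios scaling 0 of the 6 pyruvate dehydrogenase genes were higher and 4 lower, and 1 and 4 of the 9 TCA cycle genes. Relative to the median of all genes, HK2 differed by -1.11, PDK1 by -0.92, IDH2 by -0.92, LDHB by -0.75, LDHA by -0.67, PFKL by 0.62, IDH1 by 0.77 and SLC16A3 by 1.05, all on the log2 scale. These 8 genes and ALDOC kept their call under both scalings. Under at least one of the pair the sign of ALDOA, PGK1, PKM, PFKFB4, OGDH, SUCLG1 and FH turned, so no direction is read from their main values, and calls of theirs under another setting are given as values of that setting.

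**Figure D1:**
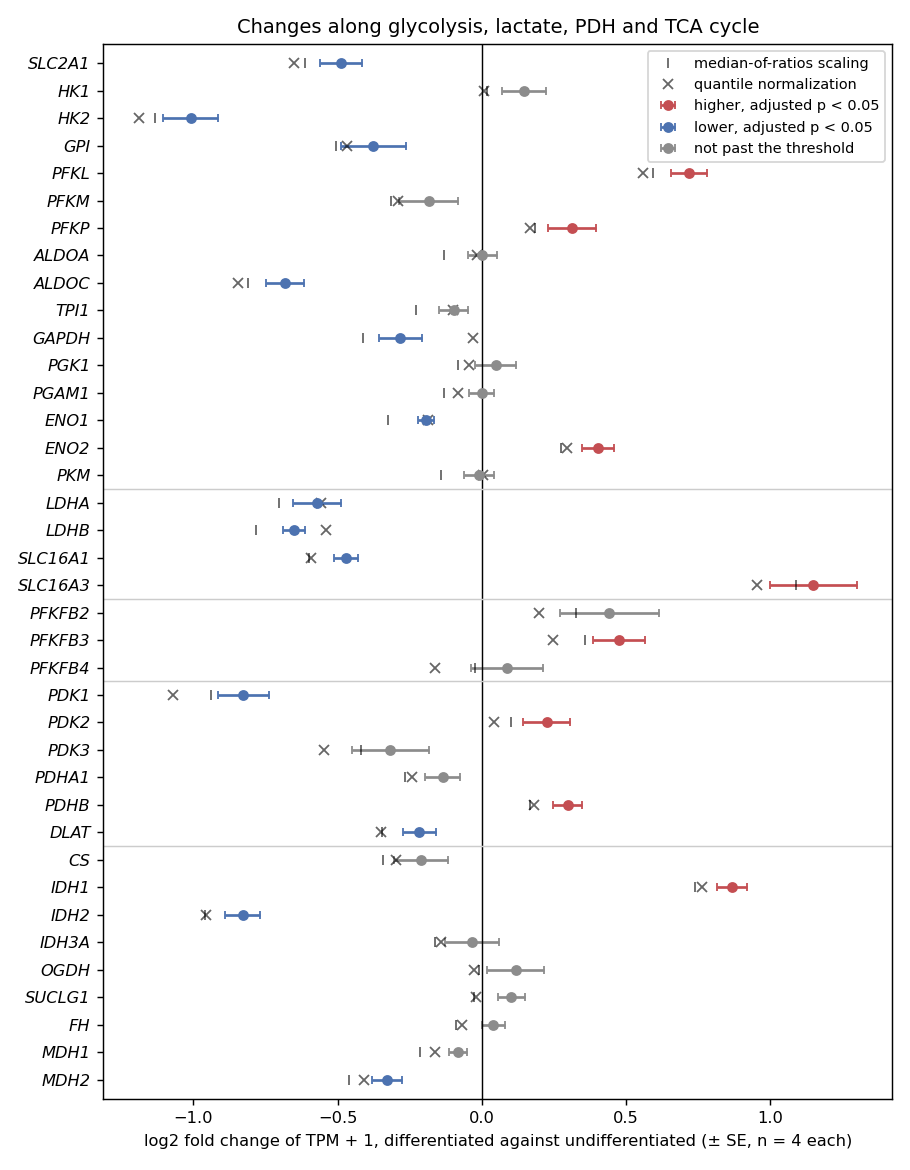
Log2 fold change of TPM + 1 (differentiated against undifferentiated) for the 38 tested genes in pathway order, as points with the standard error, n = 4 libraries a group, coloured by call; ticks and crosses mark the value under median-of-ratios scaling and quantile normalization. HK2 (-1.01), PDK1 (-0.83) and IDH2 (-0.83) lie farthest to the left and SLC16A3 (1.15), IDH1 (0.87) and PFKL (0.72) farthest to the right.

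One library and the pathway's transcript makeup bear on what follows. Differentiated replicate 22 had 6.49% of its matched TPM in retained-intron transcripts, and the other 7 libraries had 7.53% to 8.61%. Within the 39 genes protein-coding transcripts held 90.01% of its TPM, against 82.2% to 85.3% elsewhere. Transcripts annotated as targets of nonsense-mediated decay held 2.85%, against 6.26% to 7.80%. Without replicate 22, 10 pathway genes were higher and 15 lower. The calls that changed then are given beside each gene, and the part of this library's makeup in them was not tested. The sequencing lane also differs, 7 for undifferentiated replicates 17 and 18 and 8 for the other 6 libraries. Within lane 8, which leaves fewer undifferentiated libraries, the counts were 7 higher and 12 lower.

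Glucose enters through SLC2A1 (GLUT1), the main transporter of proliferating cells. It measured 23.0, 24.0, 26.5 and 24.9 TPM in the undifferentiated libraries and 17.4, 15.2, 18.2 and 18.3 TPM in the differentiated ones. All 4 differentiated libraries lay below all undifferentiated ones, and the log2 fold change was -0.49 ± 0.07 (SE, limma adjusted p = 6.62e-04). SLC2A3 made up 0.699% ± 0.190 (SD, n = 4) of the summed TPM of the pair before and 1.69% ± 0.210 after differentiation, at a level close to 0 in both groups. Processed pseudogenes hold 42.9% of the sum of SLC2A3 and its copies, so that its value is uncertain.

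Hexokinase traps glucose as glucose 6-phosphate. HK2 (chr2:74833981-74893359, plus strand), the inducible isozyme known from tumours, measured 23.6, 25.7, 24.4 and 25.3 TPM in undifferentiated and 13.4, 9.57, 11.9 and 12.6 TPM in differentiated libraries. It fell by 52.1% (log2 fold change -1.01 ± 0.10, limma adjusted p = 4.42e-05), with no overlap between the groups. HK1, the isozyme of brain, measured 35.5 ± 1.11 TPM (SD, n = 4) before and 39.5 ± 4.04 TPM after, and did not pass the test (limma adjusted p = 0.142). Replicate 22 was its lowest library at 33.7 TPM, and without it HK1 was called higher (0.22, limma adjusted p = 0.00284). HK2 thus went from 41.1% ± 0.797 to 23.0% ± 0.838 of the summed TPM of HK1 and HK2.

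Phosphofructokinase, which commits sugar to glycolysis, is a tetramer built from PFKM, PFKL and PFKP subunits. PFKL (chr21:44300051-44327376, plus strand), the liver-type subunit, measured 18.6, 17.3, 19.6 and 19.5 TPM in undifferentiated and 31.3, 34.3, 30.5 and 29.8 TPM in differentiated libraries. It rose without overlap (0.72 ± 0.06, limma adjusted p = 2.72e-05). PFKP, the platelet-type subunit, rose from 26.0 ± 2.17 to 32.6 ± 3.15 TPM (0.31 ± 0.08, limma adjusted p = 0.0144). Its groups overlapped, since undifferentiated replicate 18 had 29.3 TPM and differentiated replicate 22 had 28.3 TPM. The PFKP call was lost under median-of-ratios scaling (limma adjusted p = 0.0600) and quantile normalization (0.0890). PFKM, the muscle-type subunit, measured 71.4 ± 1.88 and 63.3 ± 9.47 TPM and did not pass (limma adjusted p = 0.172). Summed over its protein-coding transcripts alone, PFKM was called lower (-0.35, limma adjusted p = 3.69e-04), as it was under median-of-ratios scaling (-0.31, 0.00408) and quantile normalization (-0.29, 0.0118). It stayed the most abundant of the 3 in every library by TPM, with a share of 61.5% ± 1.15 before and 49.5% ± 3.58 after.

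The steps that follow include some of the most abundant genes of the list, but ALDOC is not one of these. GPI, which isomerises glucose 6-phosphate, was lower, at 122 ± 6.58 and 94.7 ± 15.4 TPM (-0.38 ± 0.11, limma adjusted p = 0.0226). Its call was lost within lane 8 (-0.36, limma adjusted p = 0.127) and without replicate 18, 20 or 23 (limma adjusted p = 0.0629, 0.0538 and 0.0602). ALDOC, the brain-type aldolase, measured 27.8, 32.2, 28.6 and 29.2 TPM in undifferentiated and 17.8, 16.3, 18.9 and 18.8 TPM in differentiated libraries. ALDOC fell without overlap (-0.68 ± 0.07, limma adjusted p = 5.13e-05). ALDOA, the ubiquitous aldolase, was at 376 ± 13.4 and 377 ± 22.0 TPM and did not pass (limma adjusted p = 0.982).

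TPI1, which interconverts the triose phosphates, did not pass at 550 ± 10.4 and 515 ± 34.1 TPM (limma adjusted p = 0.136), and without replicate 22 it was called lower (-0.14, limma adjusted p = 0.0107). GAPDH, often used as a reference gene, measured 1364, 1410, 1398 and 1382 TPM in undifferentiated and 1042, 1332, 1136 and 1077 TPM in differentiated libraries. Replicate 22 was nearest to the undifferentiated group, and none overlapped it. GAPDH fell by 17.4% (-0.28 ± 0.07, limma adjusted p = 0.0118). The call was lost within lane 8 (-0.28, limma adjusted p = 0.0862) and under quantile normalization (-0.03, 0.436). PGK1 and PGAM1, the kinase and the mutase of phosphoglycerate, did not pass (limma adjusted p = 0.604 and 0.988). Of PGK1 TPM a median of 53.3% before and 46.9% after was in protein-coding transcripts.

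Enolase makes phosphoenolpyruvate. ENO2, the neuron-specific isozyme, measured 66.9, 68.4, 70.5 and 71.3 TPM in undifferentiated and 99.4, 83.6, 92.4 and 93.2 TPM in differentiated libraries. All differentiated libraries lay above all undifferentiated ones (0.40 ± 0.06, limma adjusted p = 4.25e-04). ENO1, the ubiquitous isozyme, fell from 699 ± 11.5 to 611 ± 6.49 TPM (-0.19 ± 0.03, limma adjusted p = 5.48e-04), also without overlap. ENO2 made up 9.02% ± 0.215 of the summed TPM of ENO1 and ENO2 before and 13.1% ± 0.873 after. ENO3, given below, was not in that sum.

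PKM as a whole measured 612 ± 8.69 and 609 ± 43.5 TPM and did not pass the test (limma adjusted p = 0.899). Under median-of-ratios scaling it was called lower (-0.14, limma adjusted p = 0.0165), while quantile normalization turned its sign, and over protein-coding transcripts alone its value was 0.15 (adjusted p = 0.0506). Of its 24 transcripts in the table, PKM-202, the full-length M2 messenger, held 59.5% of PKM TPM in undifferentiated and 68.3% in differentiated libraries. PKM-202 measured 352, 360, 382 and 361 TPM before and 379, 460, 416 and 394 TPM after, and the groups overlapped in one library. The difference in its share did not pass (limma adjusted p = 0.351) and was 3.57 percentage points without replicate 22, against 8.78 with it. PKM-224, a transcript of the nonsense-mediated decay class that carries the first part of the M2 exon, measured 134, 148, 113 and 143 TPM before and 163, 23.9, 111 and 118 TPM after. The lowest value of PKM-224 is again replicate 22, and its share did not pass (limma adjusted p = 0.456).

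Transcripts with the M1 exon, the form of adult muscle and brain, were rare in both groups. The 6 of them summed to 7.33, 8.93, 7.24 and 9.23 TPM in undifferentiated and 9.29, 3.31, 6.10 and 4.69 TPM in differentiated libraries. The 3 transcripts with the M2 exon summed to 366, 376, 398 and 374 TPM and to 391, 482, 435 and 413 TPM. M1-type transcripts made up 2.12% ± 0.293 of this total before and 1.38% ± 0.693 after, with overlapping groups (exact two-sided permutation p = 0.114, where 0.0286 is the smallest that 4 against 4 allows). Replicate 21, at 2.32%, lay inside the undifferentiated range of 1.79% to 2.41%. No rise of the M1 form was measured. Other PKM transcripts with a mean of 1 TPM or more were PKM-203 (M2), PKM-201, PKM-220 and PKM-205 (M1), PKM-217, and the retained-intron transcripts PKM-206, PKM-208, PKM-209, PKM-211, PKM-212, PKM-213, PKM-214 and PKM-221, with group means of 1.08 to 20.6 TPM.

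**Figure D2:**
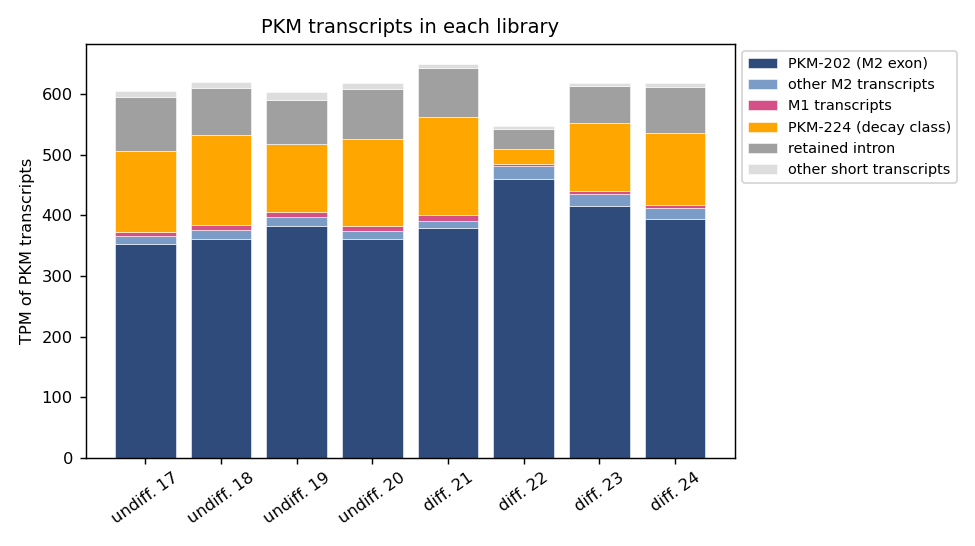
TPM of PKM transcripts in each of the 8 libraries, stacked by kind (bars start at 0; numbers on the axis are replicates). PKM-202 with the M2 exon is the largest part of every bar, M1 transcripts are a thin band of 3.31 to 9.29 TPM, and the decay-class transcript PKM-224 is small in differentiated replicate 22 alone (23.9 TPM).

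Among all transcripts tested for a change of share within their gene, 2.40% were called, and 1 of the 65 tested from 27 pathway genes was. That was PFKP-203, a protein-coding transcript, which went from 64.5%, 56.0%, 66.5% and 68.2% of PFKP TPM in undifferentiated libraries to 78.4%, 78.0%, 75.7% and 76.8% in differentiated ones (limma adjusted p = 0.0361). The call was lost when any single library other than replicate 22 was left out (limma adjusted p from 0.0640 to 0.101) and within lane 8 (0.261). PFKL-201, PFKP-205 and ALDOA-203 had an adjusted p under 0.05 but moved by less than 10 percentage points. Of the 65, replicate 22 was outermost, that is the lowest or the highest differentiated library, in 51. With 4 differentiated libraries a lowest and a highest exist for nearly every transcript, so an average library is outermost for about as many as not. Replicate 22 was outermost more often than that. Transcripts of one gene are not independent, and this count was not tested.

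Of the 4 lactate genes 3 fell and 1 rose. LDHB (chr12:21635342-21757857, minus strand), the heart-type subunit of lactate dehydrogenase, measured 1226, 1245, 1205 and 1288 TPM in undifferentiated and 767, 820, 803 and 769 TPM in differentiated libraries. It fell without overlap (-0.65 ± 0.04, limma adjusted p = 2.43e-06). LDHA (chr11:18394388-18408425, plus strand), the muscle-type subunit that favours lactate formation, measured 696, 745, 704 and 723 TPM before and 501, 403, 508 and 528 TPM after. Its libraries did not overlap either (-0.57 ± 0.08, limma adjusted p = 5.23e-04). Over protein-coding transcripts alone the LDHA value was -0.45, and its processed pseudogenes hold 1.89% of the sum of gene and copies.

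LDHB made up 63.4% ± 0.671 of the summed TPM of LDHA and LDHB before and 62.0% ± 3.46 after, with overlapping groups (exact permutation p = 0.514). That share was 67.1% in replicate 22 and 59.3% to 61.3% in the other differentiated libraries. Without replicate 22 the difference was -3.02 percentage points and the groups did not overlap (exact permutation p = 0.0571, the smallest that 3 against 4 allows). Over protein-coding transcripts it was -2.46 points (exact permutation p = 0.0286). Such transcripts held 65.4% of LDHA TPM in replicate 22 and 43.0% to 48.1% in the other libraries. For LDHB the medians were 98.7% before and 98.4% after, so the levels of this share differ between all and protein-coding transcripts. SLC16A1 (MCT1), which carries lactate and pyruvate across the membrane, fell from 61.8 ± 1.4 to 44.3 ± 1.6 TPM (-0.47 ± 0.04, limma adjusted p = 2.71e-05). SLC16A3 (MCT4; chr17:82228397-82261129, plus strand), the exporter of glycolytic cells, measured 0.212, 0.349, 0.396 and 0.461 TPM before and 1.39, 2.27, 2.55 and 1.91 TPM after. The groups did not overlap and differed by 1.15 ± 0.15. Since the gene passed the minimum only through the differentiated group, its p is given from the fit with no minimum (limma adjusted p = 4.55e-04). The pseudocount holds that value down, and with 0.1 in place of 1 it was 2.23. At this level SLC16A3 still made up 4.39% ± 1.12 of the summed TPM of the pair, from 0.568% ± 0.159.

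**Figure D3:**
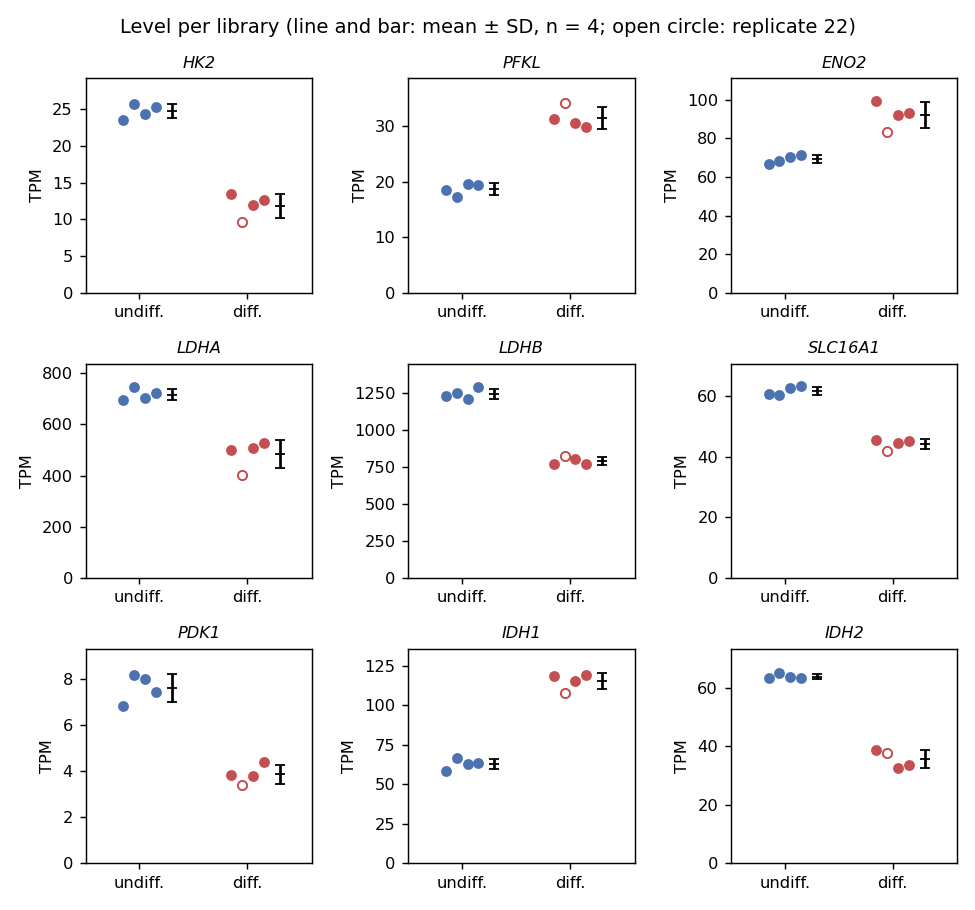
TPM of 9 genes in each library (4 undifferentiated, 4 differentiated; line and bar are mean ± SD; the open circle is replicate 22; axes start at 0). No panel has overlapping groups: PFKL, ENO2 and IDH1 are higher and HK2, LDHA, LDHB, SLC16A1, PDK1 and IDH2 are lower in differentiated libraries.

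The bifunctional enzymes PFKFB2, PFKFB3 and PFKFB4 make and remove fructose 2,6-bisphosphate, the activator of phosphofructokinase. PFKFB3 rose from 7.35 ± 0.638 to 10.6 ± 1.13 TPM (0.48 ± 0.09, limma adjusted p = 0.00240), without overlap. PFKFB2 measured 5.69 ± 0.757 and 8.24 ± 2.16 TPM and did not pass (0.44 ± 0.17, limma adjusted p = 0.0609). It was called without replicate 22 (0.58, limma adjusted p = 0.0103) and over protein-coding transcripts (0.58, 1.99e-04). PFKFB4 did not pass (limma adjusted p = 0.596).

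Pyruvate dehydrogenase kinases switch the complex off by phosphorylating its E1 alpha subunit. PDK1 (chr2:172555373-172608669, plus strand), the hypoxia-responsive kinase, measured 6.86, 8.20, 8.03 and 7.45 TPM in undifferentiated and 3.85, 3.41, 3.81 and 4.41 TPM in differentiated libraries. It fell by 49.3% without overlap (-0.83 ± 0.09, limma adjusted p = 9.05e-05). PDK2, the widely expressed kinase, was called higher by a narrow margin, from 15.7 ± 0.655 to 18.6 ± 2.08 TPM (0.22 ± 0.08, limma adjusted p = 0.0463). The PDK2 call was lost within lane 8 (limma adjusted p = 0.273), under median-of-ratios scaling (0.50), under quantile normalization (0.80), and without replicate 17, 18, 19, 20, 22 or 23 (0.0628 to 0.117). PDK3 did not pass at 4.18 ± 0.769 and 3.14 ± 0.435 TPM (-0.32 ± 0.13, limma adjusted p = 0.0775). It was called lower within lane 8 (-0.49, limma adjusted p = 0.0388), without replicate 17 (-0.40, 0.0345) and under median-of-ratios scaling (-0.42, 0.0332). Quantile normalization (-0.55, limma adjusted p = 0.0138) and protein-coding transcripts alone (-0.35, 0.0188) also gave a lower PDK3 call. PDK1 went from 27.7% ± 1.65 to 15.2% ± 2.33 of the TPM of the 3 kinases and PDK2 from 57.2% ± 2.12 to 72.5% ± 3.48. Protein-coding transcripts held a median of 45.6% of PDK2 TPM before and 45.8% after. For PDK1 the medians were 93.6% and 93.3%, and for PDK3 95.7% and 92.8%. The shares therefore count much PDK2 TPM from transcripts that are not protein-coding.

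The subunits of the complex itself moved apart. PDHB, the E1 beta subunit, rose from 64.2 ± 2.85 to 79.1 ± 3.55 TPM (0.30 ± 0.05, limma adjusted p = 0.00110), a call lost under median-of-ratios scaling (0.17, 0.0919). DLAT, the E2 acetyltransferase, fell from 39.8 ± 2.22 to 34.1 ± 1.61 TPM (-0.22 ± 0.06, limma adjusted p = 0.0118). PDHA1, the E1 alpha subunit, did not pass at 97.6 ± 3.38 and 88.9 ± 7.13 TPM (limma adjusted p = 0.0988). A median of 42.9% of PDHA1 TPM before and 43.8% after was in protein-coding transcripts. PDHA1 was called lower under median-of-ratios scaling (-0.27, limma adjusted p = 0.00113), under quantile normalization (-0.24, 0.00450) and without replicate 24 (-0.18, 0.0402). The 3 subunits summed to 202 TPM in either group.

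Among the 9 genes of the TCA cycle list the largest changes were those of the NADP-dependent isocitrate dehydrogenases, of which IDH1 lies outside the mitochondrion. IDH1 (chr2:208236227-208266074, minus strand), the NADP-dependent enzyme of the cytosol, measured 58.4, 66.3, 62.6 and 63.6 TPM in undifferentiated and 118, 108, 116 and 119 TPM in differentiated libraries. It rose without overlap (0.87 ± 0.05, limma adjusted p = 3.05e-06). IDH2 (chr15:90083045-90102504, minus strand), the NADP-dependent enzyme of the mitochondrion, measured 63.5, 65.3, 63.7 and 63.5 TPM before and 38.7, 37.8, 32.8 and 33.5 TPM after. Its fall was about as large (-0.83 ± 0.06, limma adjusted p = 9.79e-06), so genes at nearly the same TPM before differentiation ended at 115 ± 5.12 TPM (IDH1) and 35.7 ± 2.98 TPM (IDH2). IDH3A, a subunit of the NAD-dependent enzyme of the cycle, did not pass at 59.8 ± 2.24 and 58.8 ± 7.60 TPM (limma adjusted p = 0.792). Only a median of 37.7% of IDH3A TPM before and 34.5% after was in protein-coding transcripts, against 82.6% and 84.3% for IDH1 and 100% for IDH2.

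Among the remaining cycle enzymes, MDH2, the mitochondrial malate dehydrogenase, fell from 189 ± 7.58 to 150 ± 9.35 TPM (-0.33 ± 0.05, limma adjusted p = 0.00101). MDH1, its cytosolic counterpart, had groups that did not overlap but did not pass, at 168 ± 4.17 and 159 ± 1.22 TPM (-0.08 ± 0.03, limma adjusted p = 0.0593). Median-of-ratios scaling (-0.21, limma adjusted p = 0.0136), quantile normalization (-0.16, 0.00350) and leaving out replicate 22 (-0.08, 0.0467) made MDH1 a call. CS, citrate synthase, did not pass at 140 ± 3.41 and 122 ± 16.8 TPM (limma adjusted p = 0.0935). CS was called lower without replicate 21 (-0.28, limma adjusted p = 0.0217) and under median-of-ratios scaling (-0.34, 0.00111). The same call came under quantile normalization (-0.30, limma adjusted p = 0.0116) and over protein-coding transcripts (-0.22, 0.0176). OGDH, of the oxoglutarate dehydrogenase complex, SUCLG1, of succinyl-CoA ligase, and FH, fumarase, did not pass (limma adjusted p = 0.359, 0.108 and 0.453). OGDH was called higher without replicate 22 (0.21, limma adjusted p = 0.0178) and SUCLG1 without replicate 18 (0.14, 0.0470), but the sign of both turned under either scaling.

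Summed over all 39 genes, TPM went from 7439 ± 117 (SD, n = 4), or 0.744% of a library, to 6325 ± 71.4, or 0.633%. The sum of LDHA and LDHB fell by 34.9% and accounted for most of this in TPM, from 1958 ± 49.97 to 1275 ± 38.8. The lower glycolytic enzymes from GAPDH to PKM changed by -10.0% and the upper ones from GPI to TPI1 by -5.21%. SLC2A1 and SLC2A3 together changed by -29.1%, the hexokinases HK1 and HK2 by -14.7% and the pair of lactate transporters by -25.5%. The glucose transporter sum is nearly all SLC2A1. It leaves out other transporters such as SLC2A10, which rose (given below), so it is not the total of glucose transporter RNA. The 3 kinases changed by -6.96%, the pyruvate dehydrogenase subunits by 0.25% and the 9 TCA cycle genes by -4.13%. That last sum includes the cytosolic IDH1 and MDH1. Within it the rise of IDH1 from 62.7 to 115 TPM offsets the falls of IDH2 (64.0 to 35.7 TPM) and MDH2 (189 to 150 TPM). It is therefore not the change of the mitochondrial enzymes alone. Without replicate 22 the value was -10.2% for the hexokinases, -2.66% for the TCA cycle and 1.31% for the pyruvate dehydrogenase subunits. Over protein-coding transcripts it was -16.1% for the kinases and 6.17% for the subunits. These are descriptions with no test. In bulk RNA a lower TPM from fewer cells of a type cannot be told apart from less RNA per cell.

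A share within a family does not depend on the scaling of the library, and 12 such shares were computed over all transcripts. The groups did not overlap for 9 of them: HK2, PFKM, PFKL, ALDOC, ENO2, SLC2A3, SLC16A3, PDK1 and PDK2 (exact two-sided permutation p = 0.0286 each, the smallest possible, 0.0381 after Benjamini-Hochberg adjustment over the 12). The shares of PFKL, PFKM and PFKP are parts of one whole, as are those of PDK1, PDK2 and PDK3. A change of one member moves its partners, so the 12 are not separate results. No such share was computed for other families, and by level 49.6% of all tested genes did not overlap. SLC2A3 lay under the minimum, with none of its TPM in protein-coding transcripts, and SLC16A3 passed it only through the differentiated group. Without these genes 7 shares did not overlap. Those of HK2, PFKM, ALDOC and PDK1 were lower after differentiation, and those of PFKL, ENO2, SLC2A3, SLC16A3 and PDK2 were higher. The shares of PFKP (22.4% ± 1.96 and 25.6% ± 1.02) and PDK3 (15.1% ± 1.87 and 12.3% ± 1.73) overlapped (exact permutation p = 0.0857 each, adjusted 0.0935), as did that of LDHB.

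**Figure D4:**
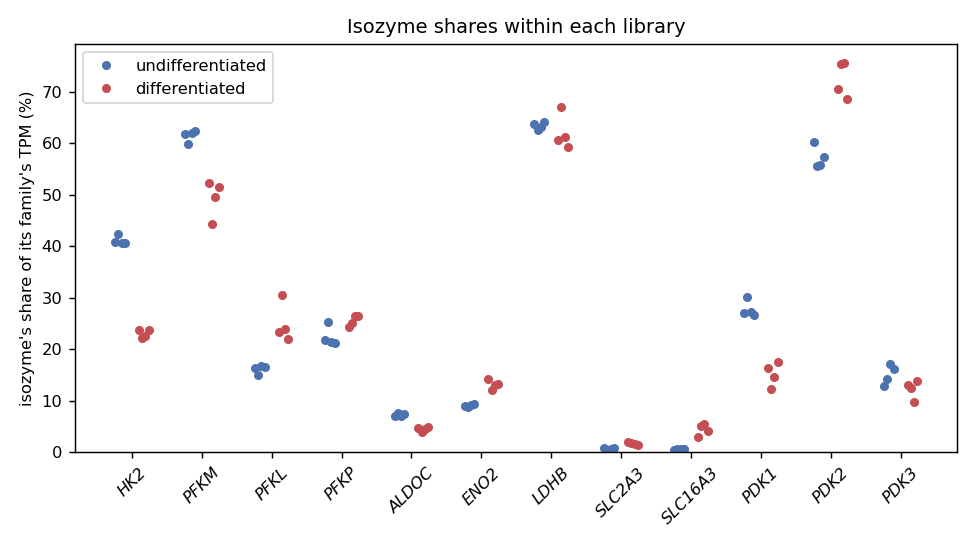
Share of each isozyme in the summed TPM of its family, in percent, one point per library (4 undifferentiated and 4 differentiated, side by side for each isozyme). Points separate without overlap for 9 of 12 shares, with the widest gaps for HK2 (41.1% to 23.0%), PDK2 (57.2% to 72.5%) and PDK1 (27.7% to 15.2%), and overlap for PFKP, LDHB and PDK3.

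Genes next to the pathway were counted from lists, and each count stands beside 33.9% higher and 17.4% lower over all tested genes. Of 13 other tested glycolytic isozymes and transporters 8 were higher and 2 lower, with a median of 0.33. SLC2A10 (GLUT10) rose from 2.01 ± 0.238 to 8.57 ± 1.09 TPM (1.66 ± 0.10, limma adjusted p = 4.19e-06). ENO3, the muscle enolase, rose from 15.3 ± 1.35 to 30.0 ± 1.06 TPM (0.93), and PGAM2, the muscle mutase, from 2.54 ± 0.322 to 4.66 ± 0.802 TPM (0.67). SLC2A4 (GLUT4), the insulin-responsive transporter, fell to 0.985 ± 0.136 TPM from 1.75 ± 0.172 (-0.47), and passed the minimum only through the undifferentiated group (limma adjusted p = 0.00845 with no minimum). Of 24 other genes of pyruvate entry and the TCA cycle 4 were higher and 8 lower, with a median of 0.04, and 9 were higher over protein-coding transcripts alone. PDP1, the phosphatase that opposes the kinases, rose from 11.5 ± 0.209 to 22.9 ± 3.29 TPM (0.93 ± 0.10, limma adjusted p = 8.06e-05). ACO1, the cytosolic aconitase (0.81), and SUCLG2 (0.67), of succinyl-CoA ligase, also rose. PC, pyruvate carboxylase, fell from 11.9 ± 0.548 to 6.64 ± 0.686 TPM (-0.76 ± 0.08, limma adjusted p = 6.91e-05). MPC1, of the mitochondrial pyruvate carrier, fell from 85.1 ± 3.84 to 59.6 ± 5.45 TPM (-0.51), while its partner MPC2 did not pass (0.22, limma adjusted p = 0.0522) but was called higher without replicate 19 (0.27, 0.0263) or 24 (0.26, 0.0388). SDHA, of succinate dehydrogenase, fell (-0.20), a call lost over protein-coding transcripts alone (-0.16, limma adjusted p = 0.0563), and PDK4 did not pass (0.273).

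In the pentose phosphate pathway 4 of 10 tested genes were higher and 3 lower, with a median of 0.03, and 2 were higher and 5 lower under median-of-ratios scaling. That scaling turned the sign of this median (-0.10), of the other pyruvate and TCA genes (-0.09) and of the HIF target genes outside glycolysis (-0.11). H6PD, which starts the pathway in the endoplasmic reticulum, rose from 7.81 ± 0.269 to 17.8 ± 3.93 TPM (1.07 ± 0.15, limma adjusted p = 4.22e-04), and so did PGLS (0.58), the lactonase, whose call was lost within lane 8 (limma adjusted p = 0.0733) and under either scaling (0.0573 and 0.0745). TKT, transketolase, fell (-0.29). Of 12 tested genes of gluconeogenesis and glycogen 7 were higher and 2 lower, with a median of 0.34. The lower count was 1 without replicate 17, 18, 19, 20, 23 or 24 and 0 within lane 8. PYGL, the liver glycogen phosphorylase, rose from 4.23 ± 1.03 to 20.0 ± 0.790 TPM (2.03 ± 0.13, limma adjusted p = 5.68e-06). UGP2, which makes UDP-glucose, rose from 31.0 ± 0.686 to 65.5 ± 3.02 TPM (1.06), GYG1, the glycogen primer, by 0.67 and PYGB, the brain phosphorylase, by 0.58.

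The list of shuttles and glutamine entry had 5 genes higher and 5 lower of 12, with a median of -0.13, and 1 higher and 7 lower under median-of-ratios scaling. The higher count was 2 within lane 8 and without replicate 17 or 20, and 3 without replicate 18, 21, 23 or 24. SLC25A1, the citrate carrier, rose from 26.0 ± 2.15 to 42.8 ± 7.94 TPM (0.69 ± 0.13, limma adjusted p = 0.00209). GPD1L fell (-0.50) and GLS2, the liver-type glutaminase, rose at a low level (0.48, limma adjusted p = 0.0356), having passed the minimum only through the differentiated group (0.0472 with no minimum). The GLS2 call was lost within lane 8, under either scaling and without replicate 17, 20, 21 or 24 (limma adjusted p from 0.0532 to 0.136).

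Hypoxia-inducible factor (HIF) and MYC are the textbook transcriptional activators of glycolytic genes. HIF1A, whose protein is controlled mainly by its stability, rose from 196, 186, 185 and 185 TPM to 481, 384, 420 and 446 TPM (1.19 ± 0.07, limma adjusted p = 2.28e-06). EPAS1, the HIF-2 alpha subunit, fell from 15 ± 0.346 to 7.09 ± 1.01 TPM (-0.99 ± 0.09, limma adjusted p = 3.23e-05). EGLN3 (1.01) and EGLN1 (0.76), prolyl hydroxylases that mark HIF for breakdown, rose. Over the 9 genes of the HIF pathway 4 were higher and 1 lower, with a median of 0.18, and 2 were lower without replicate 21, over protein-coding transcripts alone and under either scaling. Of 13 tested HIF target genes outside glycolysis 4 were higher (P4HA2 0.89, ADM 0.67, P4HA1 0.44 and BNIP3L 0.41) and 1 was lower, with a median of 0.01, and 4 were higher and 5 lower under quantile normalization. The lower count was 2 without replicate 22 and 0 within lane 8. The ADM call was lost within lane 8 (0.70, limma adjusted p = 0.0753).

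Of 11 tested regulators of glucose use 2 were higher and 6 lower, with a median of -0.46. MYC measured 51.9, 53.3, 55.5 and 51.1 TPM in undifferentiated and 6.0, 6.16, 5.90 and 5.21 TPM in differentiated libraries (-2.99 ± 0.06, limma adjusted p = 1.17e-08). MYCN, which is not amplified in this line, fell from 2.01 ± 0.244 to 0.611 ± 0.0977 TPM (-0.90), and passed the minimum only through the undifferentiated group (limma adjusted p = 2.79e-04 with no minimum). TFAM, which maintains mitochondrial DNA, fell from 67.4 ± 2.02 to 36.9 ± 5.05 TPM (-0.86), and SIRT3, the mitochondrial deacetylase, rose from 17.5 ± 1.03 to 31.1 ± 2.69 TPM (0.79). TXNIP, an inhibitor of glucose uptake, fell (-0.46, limma adjusted p = 0.00681), a call lost within lane 8 (-0.32, 0.0859).

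**Figure D5:**
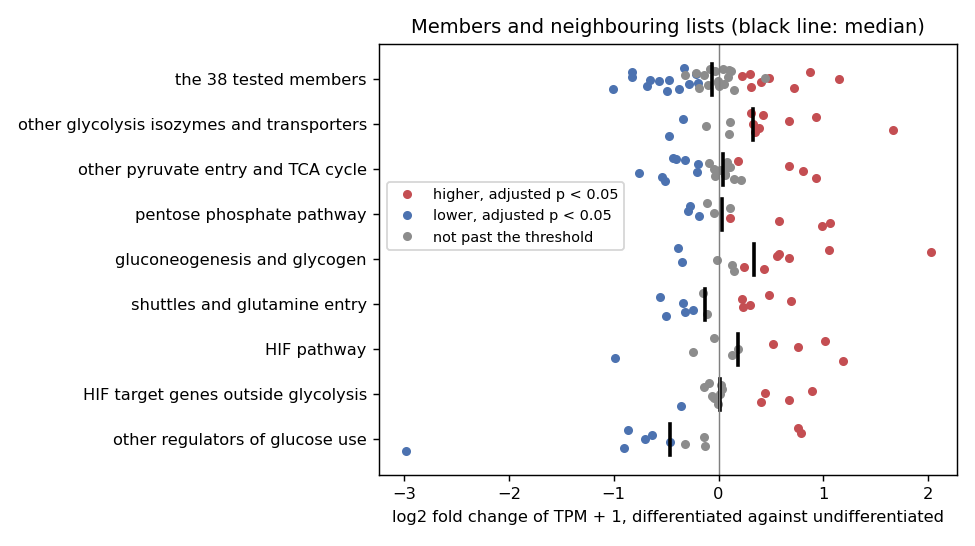
Log2 fold change of TPM + 1 (differentiated against undifferentiated) for every tested gene of the pathway and of 8 neighbouring lists, one point per gene coloured by call, with the list's median as a black line. Medians run from -0.46 for the other regulators of glucose use, where MYC lies at -2.99, to 0.34 for gluconeogenesis and glycogen, where PYGL lies at 2.03.

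HIF and MYC bind short motifs, ACGTG or GCGTG for HIF (a CACGTG also holds ACGTG on both strands) and CACGTG for MYC. They were searched on both strands of RefSeq windows (GRCh38.p14) from 250 bases before to 50 after a start, of which 65 belonged to 35 of the 39 genes. The tested genes had 16139 windows for 11116 genes, fewer per gene. A gene with more windows has more places for a motif, and the counts by gene and by call are not corrected for this. ACGTG occurred in 23 of the 65 windows, beside 21.4% of all windows and 25.1% of the windows of tested genes. By gene it occurred in 19 of the 35, beside 31.9% of all tested genes. By call it was found in 7 of 8 genes that were higher, 7 of 12 that were lower and 5 of 15 that did not pass. Several of the higher genes, such as SLC16A3, PFKP and PDK2, have more than 1 window. SLC16A3 also passed the minimum only through the differentiated group. No share by call was computed over all tested genes, so no difference between calls is read from these counts. GCGTG occurred in 30 windows, beside 36.5% of all windows and 48.4% of the windows of tested genes. By gene it occurred in 25, beside 58.2% of tested genes. By call it was found in 7 of 8, 8 of 12 and 10 of 15. CACGTG occurred in 8 windows, beside 7.26% of all windows and 9.00% of the windows of tested genes. By gene it occurred in 8, beside 12.1% of tested genes, or 3 of 8, 4 of 12 and 1 of 15 by call. A gene that fell and a gene that rose are shown, HK2 and IDH1, each by the bases before a start that no annotated exon covers, 5′ to 3′ on the gene's strand with motifs in capitals.
HK2, chr2:74834920-74835169, plus strand: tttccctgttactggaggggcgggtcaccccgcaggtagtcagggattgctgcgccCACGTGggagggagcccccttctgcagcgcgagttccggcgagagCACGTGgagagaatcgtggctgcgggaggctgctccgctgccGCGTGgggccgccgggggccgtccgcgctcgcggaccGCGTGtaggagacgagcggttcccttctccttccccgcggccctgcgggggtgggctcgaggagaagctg
IDH1, chr2:208254459-208254708, minus strand: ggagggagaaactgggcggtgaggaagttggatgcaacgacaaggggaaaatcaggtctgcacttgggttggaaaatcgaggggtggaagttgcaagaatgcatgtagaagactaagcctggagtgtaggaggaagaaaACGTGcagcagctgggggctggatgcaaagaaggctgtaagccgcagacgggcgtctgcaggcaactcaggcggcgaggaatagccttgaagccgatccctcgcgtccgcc
The HK2 stretch holds 2 CACGTG, counted as 4 ACGTG over both strands, and 2 GCGTG, and the IDH1 stretch holds 1 ACGTG. With the 50 bases after the start, that IDH1 window also holds 1 GCGTG. The second IDH1 window holds 3 GCGTG and no ACGTG, and the second HK2 window 2 ACGTG and 1 GCGTG. These letters are a description of the windows and say nothing of binding.

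Markers of cell state moved with differentiation. Of 10 noradrenergic neuroblastoma markers 7 were lower and 1 higher, with sums of 2380 to 2466 TPM before and 1620 to 1853 TPM after. Of 8 tested mesenchymal-type markers 6 were higher and none lower, with sums of 364 to 400 TPM and 1253 to 1367 TPM, while COL1A2 stayed near 0 and PRRX1 was under 0.1 TPM in every library. Schwann and glial markers summed to 8.18 to 10.8 TPM before and 18.8 to 20.4 TPM after, with 1 of 4 tested higher and SOX10 at 0. Epithelial and endothelial markers summed to 2.09 to 3.34 TPM and 13.5 to 18.1 TPM, with CDH5 and VWF near 0. KRT18 carried most of that sum (0.262 and 12.1 TPM). It and KRT8 (0.828 and 2.11 TPM), the 2 called of 3 tested, passed the minimum only through the differentiated group. CDH1 measured 0.234 and 0.103 TPM. Blood markers summed to under 1 TPM in every library. The part of cell state in the pathway's changes was not tested.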

How the data were processed

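The authors deposited TPM for 194993 Ensembl transcripts in 8 libraries, each summing to 1000000, so that read depth is unknown and no counting intervals are given. The submitters' processing notes name Salmon, FastQC 0.11.2 and GRCh37. Its version, settings and handling of strand were not found in the sources used here, so values of genes with close copies or antisense partners are uncertain. RNA was extracted with RNeasy and libraries made with an Illumina stranded mRNA kit, per the labels' protocols. Groups come from the cell type label.

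Transcripts were matched by identifier to GENCODE 29 (GRCh38), which matched 92.8% of them and 93.2% to 95.0% of TPM, and were summed by gene. Positions are on GRCh38. Genes whose mean reached 1 TPM were fitted in limma 3.58.1 (R 4.3.3, trended eBayes, group as the only term) on log2(TPM + 1), two-sided, with Benjamini-Hochberg adjustment over all 17077. Transcript shares were tested with limma on the arcsine square root of each share (genes of 5 TPM or more in each group, mean shares of 10% to 90%) and called at an adjusted p under 0.05 with a difference of 10 percentage points or more. Isozyme and M1 shares were tested with exact permutation over libraries (scipy 1.17.1). The scripts were tested on simulated data.

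The genes and lists were chosen with earlier results of these data known. All 39 genes were named, with up to 4 called genes of largest change from each neighbouring list and HIF1A, EPAS1, MYC, TXNIP, PDK4, MPC1, MPC2 and SDHA. Some genes that this rule names are not reported here. The 19 alternatives were other scalings, pseudocounts, filters, lanes, transcript or pseudogene sets and tests, and leaving out each library.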

Additional observations from a re-analysis of the deposited data

Results flagged for a closer look

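A library was marked where its gap to the nearest of the others in its group of 4, divided by the group's range, was above Dixon's critical value. Among 134 groups tested 7 were marked, and chance marks about 1 in 20. Undifferentiated replicate 18 had 29.3 TPM of PFKP (24.8 to 25.03 TPM in the others) and 65.3 TPM of IDH2 (63.5 to 63.7 TPM). Its HK2 share of HK1 and HK2 was 42.3% (40.6% to 40.8%), and its PDK1 share of the kinase family was 30.2% (26.6% to 27.1%). Differentiated replicate 23 had 91.0 TPM of FH, with 83.3 to 84.0 TPM in the others. PKM-205, an M1-exon transcript, was at 3.67 TPM in differentiated replicate 21 and at 0 to 0.467 TPM in the others. PKM-206 was at 0.938 TPM in undifferentiated replicate 19 and at 2.92 to 3.03 TPM in the others. None of the 7 was differentiated replicate 22.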

How the results depend on the processing

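Over all genes, 1914 were lower within lane 8 and 5098 under quantile normalization, against 2970, and 5 of the pathway genes were higher under median-of-ratios scaling, against 8. The exact permutation test per gene called 0 genes, 0 higher and 0 lower, and 0 pathway genes, since 4 against 4 gives no adjusted p under 0.0576; 8475 genes had an unadjusted p of 0.0286 and limma called 8761. Leaving out 1 library gave 7770 to 9763 genes, with 7 to 10 pathway genes higher and 12 to 15 lower. Called transcript shares numbered 550, 32 within lane 8 and 157 to 682 without 1 library (157 without replicate 18, 185 without 17, 192 without 23, 194 without 20, 217 without 19 and 349 without 24); the smaller sets hold fewer samples. Over protein-coding transcripts alone the share differences were 5.13 percentage points for PFKP and -2.46 for LDHB, both past the threshold. The SLC2A3 share was not run over protein-coding transcripts, where SLC2A3 sums to 0. With PKM-224 and other transcripts holding part of the M2 exon counted as M2, an alternative chosen after seeing the data, the M1 share differed by -0.486 points (exact permutation p = 0.0857). Summing processed pseudogenes changed no pathway call, and pseudocount 0.1 changed none. No paired analysis was possible because the groups share no replicate numbers. Depth is unknown, so the precision of genes near 0 TPM (SLC2A3, SLC16A3, M1 transcripts) cannot be stated.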
